A study of Mus musculus with 32 samples.

Results

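*Scn4a*, *Scn4b* and *Clcn1* carry the electrical activity of the skeletal muscle membrane, and their RNA was followed here from P1 to P35 in WT and *Mtm1* KO mice. The 3 genes were taken by name out of the 54838 genes in the count table, each symbol matched a single Ensembl ID, and all 3 had enough counts to be tested in every comparison. The data set held poly(A) RNA of skeletal muscle from 32 libraries, 4 for each genotype at P1, P14, P21 and P35, all from mice labelled as C57BL6/J. The study names the muscle as tibialis anterior (TA). KO mice carried a germline deletion in exon 4 of the X-linked gene *Mtm1*, which encodes the lipid phosphatase myotubularin, so that all cells of the animal and not only muscle carried it, and no other allele or treatment is given for either genotype. The labels number the libraries of a group but do not tie them to named animals, so *P*-values measure the spread between these libraries.

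*Scn4a* encodes the pore-forming alpha subunit of the sodium channel that carries the action potential along the muscle fiber, and *Scn4b* encodes a beta subunit, a single-pass membrane protein that associates with alpha subunits and changes their gating. *Clcn1* encodes the muscle chloride channel, which holds the membrane near its resting potential between action potentials, and loss of its function gives myotonia.

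*Scn4a* (ENSMUSG00000001027) lies at chr11:106318592-106353288 on the minus strand of GRCm38, *Scn4b* (ENSMUSG00000046480) at chr9:45138395-45154152 on the plus strand and *Clcn1* (ENSMUSG00000029862) at chr6:42286685-42315756 on the plus strand. Every value of the 3 genes was a whole number in all 32 libraries, so their counts held no fractions of reads. The last exon of *Clcn1* overlaps exons of *Fam131b* on the other strand, and *Fam131b* had at most 244 counts in any library, whereas *Clcn1* had at least 593. The promoters of the 3 genes, 250 bases before to 50 bases after the start annotated by RefSeq (GRCm38.p6), are shown because all 3 genes rose from P1 to P14. They are chr11:106349341-106349640 (minus strand), chr9:45138374-45138673 and chr6:42286435-42286734, of which the starts of *Scn4a* and *Scn4b* lie inside the longer gene models, and capitals mark matches to the motifs searched on both strands (E-box CANNTG, the consensus of MEF2, the CArG box consensus of SRF and the TATA box TATAAA).
Scn4a: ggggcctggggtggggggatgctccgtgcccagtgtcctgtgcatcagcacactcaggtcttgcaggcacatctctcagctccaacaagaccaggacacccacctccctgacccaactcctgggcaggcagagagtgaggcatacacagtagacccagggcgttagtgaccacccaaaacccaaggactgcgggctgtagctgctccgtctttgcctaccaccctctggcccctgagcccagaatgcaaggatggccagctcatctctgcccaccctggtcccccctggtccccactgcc
Scn4b: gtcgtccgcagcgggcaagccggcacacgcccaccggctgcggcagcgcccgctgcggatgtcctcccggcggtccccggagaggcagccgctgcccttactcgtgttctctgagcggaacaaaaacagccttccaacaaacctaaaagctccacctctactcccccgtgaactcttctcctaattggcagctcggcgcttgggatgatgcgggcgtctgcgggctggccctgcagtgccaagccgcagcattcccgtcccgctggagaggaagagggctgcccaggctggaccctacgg
Clcn1: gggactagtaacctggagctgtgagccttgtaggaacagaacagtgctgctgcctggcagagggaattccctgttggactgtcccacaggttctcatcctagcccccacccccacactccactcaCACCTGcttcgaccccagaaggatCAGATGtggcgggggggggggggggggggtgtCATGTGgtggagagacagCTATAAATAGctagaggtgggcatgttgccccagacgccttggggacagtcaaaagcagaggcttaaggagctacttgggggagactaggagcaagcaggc
Matches were found in *Clcn1* alone. Its promoter held 3 E-boxes (CANNTG, the motif of the MyoD family), CACCTG at -125 to -120, CAGATG at -101 to -96 and CATGTG at -69 to -64 from the start. A match to the consensus of MEF2, a family of muscle transcription factors, stood at -51 to -42 and contained the TATA box TATAAA at -50 to -45. Among 32851 promoters of this length, 72.3% held an E-box on either strand, 3.19% the MEF2 consensus, 1.63% the CArG box and 13.6% TATAAA. These matches are letters in a window and not measured sites.

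Library totals ranged from 49321035 to 85631408 counts. *Mtm1* was lower in KO than in WT at each age, with log2 fold changes of -0.98 at P1 and between -2.71 and -2.34 later, with every KO library below every WT library of its age. All 12 markers of fast myofibers were detected in each group. Keratinocyte markers reached a summed 1587.5 to 6069.7 CPM, counts scaled to a fixed library size, at P1 and at most 7.06 CPM from P14 on. KO P1 replicate 4 stood apart, with 16.6 CPM of summed neuronal markers against 1.78 to 2.07 CPM in the other KO P1 libraries and the lowest sum of myofiber markers of its group. Library sizes were scaled with TMM, a method that centres libraries on the bulk of their genes. A gene was called a DEG where the two-sided quasi-likelihood (QL) test of edgeR, adjusted over all genes tested, gave a *P*-value under 0.01 together with more than a 1.5-fold change. By this rule *Mtm1* was a DEG between KO and WT at P14, P21 and P35 but not at P1 (adjusted *P*=0.0669 by the QL test of edgeR).

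All 3 genes rose steeply between P1 and P14 in both genotypes. *Scn4b* had the largest of the 3 fold changes and *Scn4a* the smallest. In WT at P1, *Scn4a* was at 47.5, 57.5, 48.1 and 49.4 CPM, *Scn4b* at 11.7, 12.1, 10.3 and 12.2 CPM and *Clcn1* at 10.04, 11.6, 11.01 and 8.81 CPM. At P14 the 4 WT libraries held 273, 245, 309 and 292 CPM of *Scn4a*, 358, 345, 458 and 458 CPM of *Scn4b* and 133, 125, 164 and 142 CPM of *Clcn1*. Every P14 library was above every P1 library for each gene, as in 36% of all genes tested in WT. The step was 5.49-fold for *Scn4a* (log2 fold change 2.46, SE 0.0963), 34.8-fold for *Scn4b* (5.12, SE 0.132) and 13.5-fold for *Clcn1* (3.76, SE 0.118), with adjusted *P*-values between 9.37e-09 and 5.39e-08 by the QL test of edgeR. KO muscle made the same step by log2 fold changes of 2.38 (SE 0.258), 5.27 (SE 0.386) and 3.94 (SE 0.225), with adjusted *P*-values of 2.56e-05, 2.83e-06 and 9.75e-07, again without overlap, as in 33.7% of all genes in KO. All 3 genes were thus DEGs in each genotype at a step at which 24.7% of all genes tested in WT and 23.5% in KO were DEGs with a rise. With library totals in place of TMM the median of all genes stood at -0.85 in WT and -0.81 in KO and fewer genes rose (1598 against 4304 in WT and 1630 against 4168 in KO), while the 3 genes rose in WT by 1.68, 4.34 and 2.98 and in KO by 1.67, 4.57 and 3.22 on the log2 scale. Summed fast myofiber markers rose too, from at most 41905.5 CPM at P1 to at least 187810.3 CPM at P14 in WT. As a mean log2 ratio of counts to these summed markers, *Scn4a* in WT was at -9.44 at P1 and -9.57 at P14. *Scn4b* went from -11.57 to -9.05 and *Clcn1* from -11.74 to -10.56. In KO the 3 ratios went from -9.57, -11.83 and -11.95 to -9.71, -9.02 and -10.58. The part of myofiber content in this step was not tested.

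**Figure D1:**
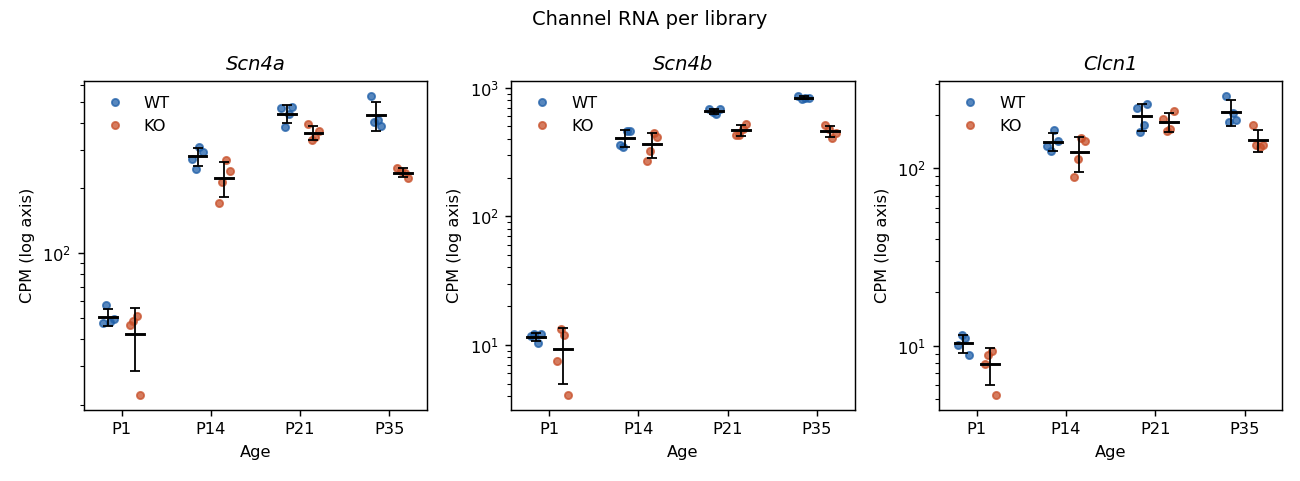
RNA level of the 3 channel genes in each library (points, CPM on a log axis) by age, with WT in blue and KO in orange, and the mean ± SD of 4 libraries in black. Levels rise from P1 to P14 in both genotypes, and at P35 the KO libraries of each gene lie below all WT libraries.

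From P14 to P21 the sodium channel genes rose further in WT. WT libraries at P21 held 469, 381, 437 and 471 CPM of *Scn4a*, 685, 647, 623 and 677 CPM of *Scn4b* and 220, 161, 176 and 230 CPM of *Clcn1*. *Scn4a* and *Scn4b* of P21 did not overlap those of P14, whereas *Clcn1* did, and 14.7% of all genes lay above P14 without overlap. *Scn4a* rose 1.56-fold (log2 fold change 0.64, SE 0.1002, adjusted *P*=0.00286) and *Scn4b* 1.61-fold (0.69, SE 0.113, adjusted *P*=0.00340) by the QL test of edgeR, where 2.93% of all genes rose as DEGs. *Clcn1* changed by 0.46 (SE 0.129), which missed the threshold (adjusted *P*=0.0280). The calls of *Scn4a* and *Scn4b* were lost without WT P14 replicate 1 (0.62 and 0.63) and without WT P14 replicate 2 (0.58 and 0.62). With library totals the log2 fold changes were 0.49 and 0.54, both under the fold threshold, at a median of all genes of -0.19. In that scaling 246 genes rose and 569 fell, against 450 and 398 with TMM.

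In KO muscle *Scn4a* rose at this step, and *Scn4b* and *Clcn1* did not pass the threshold. KO libraries held 171, 213, 269 and 241 CPM of *Scn4a* at P14 and 393, 333, 343 and 367 CPM at P21, with no overlap, as in 15.5% of all genes. The log2 fold change was 0.67 (SE 0.128, adjusted *P*=0.00642 by the QL test of edgeR), at a step at which 3.3% of genes rose as DEGs. This call held without KO P14 replicate 3 or 4 and was lost in the other 6 fits that left out a library, where the value ranged from 0.57 to 0.71. *Scn4b* went from 269, 323, 444 and 416 CPM to 428, 427, 478 and 525 CPM, which overlap, for a change of 0.34 (SE 0.155, 95% interval -0.00 to 0.69, adjusted *P*=0.1252). *Clcn1* went from 89.3, 112, 148 and 142 CPM to 190, 163, 167 and 212 CPM, all above P14, for a change of 0.56 (SE 0.156, adjusted *P*=0.0269).

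Between P21 and P35, *Scn4a* fell in KO and did not pass the threshold in WT. WT libraries at P35 held 531, 405, 410 and 388 CPM of *Scn4a*, within the range of P21 but for replicate 1, and KO libraries held 248, 239, 234 and 222 CPM. All 4 KO libraries were thus below the 4 KO libraries of P21, as in 14.6% of all genes. The KO step was -0.59 (SE 0.0750, 1.51-fold lower, adjusted *P*=0.00210 by the QL test of edgeR), where 1.94% of genes fell as DEGs, and the WT step was -0.03 (SE 0.116, 95% interval -0.29 to 0.23). The call rested on a fold just over 1.5 and was lost without KO P21 replicate 1 (-0.55), KO P21 replicate 4 (-0.58) or KO P35 replicate 4 (-0.57), and with library totals (-0.45, at a median of all genes of 0.16, where 152 genes fell against 305 with TMM).

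*Scn4b* and *Clcn1* were not DEGs at this step in either genotype, where 2.45% of all genes in WT were. *Scn4b* of WT reached 861, 816, 836 and 828 CPM at P35, above every P21 library as in 13.5% of all genes, by 0.33 (SE 0.0652, adjusted *P*=0.0114). In KO it stood at 514, 478, 405 and 441 CPM, overlapping P21, with a change of -0.00 (95% interval -0.23 to 0.23). *Clcn1* of WT was at 256, 182, 205 and 188 CPM, a change of 0.07 (95% interval -0.25 to 0.38) from P21, and in KO at 175, 135, 131 and 135 CPM, a change of -0.33 (95% interval -0.60 to -0.06, adjusted *P*=0.0717). Consecutive steps share the libraries of the age between them.

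Ordered by mean level, the 8 groups fell into a low pair of P1 groups and a high set of later ones for each gene, with no overlap between WT P1 and the next group. For *Scn4a* the order after P1 was KO P14, KO P35, WT P14, KO P21, WT P35 and WT P21, and WT P14 to KO P21 was the only neighboring pair of these that did not overlap. For *Scn4b* it was KO P14, WT P14, KO P35, KO P21, WT P21 and WT P35, with gaps below WT P21 and below WT P35. For *Clcn1* it was KO P14, WT P14, KO P35, KO P21, WT P21 and WT P35, and all of these neighbors overlapped. At P35 the KO level of all 3 genes thus overlapped that of P14 WT muscle, with mean log2 CPM of 7.88 against 8.12 for *Scn4a*, 8.84 against 8.65 for *Scn4b* and 7.16 against 7.13 for *Clcn1*.

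Levels of different genes were compared per kb of exon in the GENCODE M21 gene models. In WT at P1, *Scn4a* was the highest of the 3 at 7.19 ± 0.660 CPM per kb (SD, n=4), with *Scn4b* at 2.32 ± 0.172 and *Clcn1* at 1.91 ± 0.222. At P35 *Scn4b* led at 168 ± 3.85 CPM per kb, followed by *Scn4a* at 61.6 ± 9.37 and *Clcn1* at 38.3 ± 6.16. *Scn3b*, another beta subunit, was at 17.9 ± 1.96 CPM per kb in WT at P1 and at 1.08 ± 0.286 at P35, with a log2 fold change of -3.51 from P1 to P14 (adjusted *P*=4.70e-08 by the QL test of edgeR). In KO at P35 the 3 genes were at 92.2 ± 9.42 (*Scn4b*), 33.5 ± 1.56 (*Scn4a*) and 26.5 ± 3.799 (*Clcn1*) CPM per kb, in the same order as in WT.

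**Figure D2:**
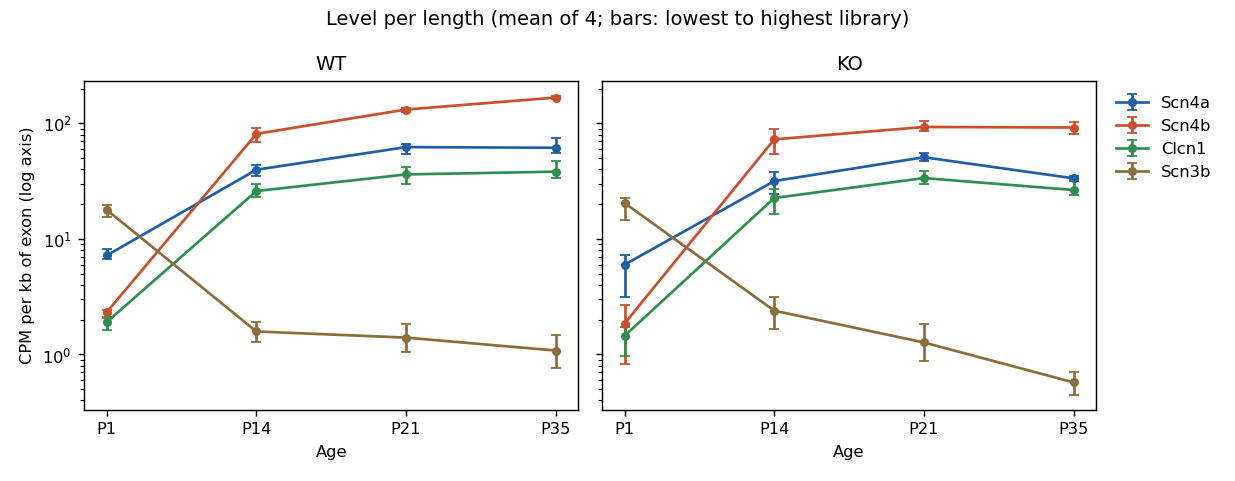
Level per kb of exon (log axis) of the 3 genes and of *Scn3b* by age in WT (left) and KO (right), as the mean of 4 libraries with bars from the lowest to the highest library. *Scn4b* passes *Scn4a* between P1 and P14, while *Scn3b* is lower at P14 than at P1 in both genotypes.

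KO and WT were then compared within each age. At P1 and P14 none of the 3 genes was a DEG, at ages at which 0.0442% and 0.0318% of all genes were. KO libraries at P1 held 46.7, 48.7, 51.1 and 22.2 CPM of *Scn4a*, 7.50, 13.4, 11.9 and 4.09 CPM of *Scn4b* and 7.93, 8.88, 9.37 and 5.29 CPM of *Clcn1*. For each gene the groups overlapped, and replicate 4, the library that stood apart, was the lowest of the 8. The log2 fold changes were -0.25 (95% interval -0.76 to 0.26) for *Scn4a*, -0.32 (-1.004 to 0.37) for *Scn4b* and -0.38 (-0.77 to 0.00) for *Clcn1*, with adjusted *P*-values of 0.703, 0.717 and 0.459 by the QL test of edgeR. Without KO P1 replicate 4 they were -0.04, -0.07 and -0.23. At P14, with the CPM values given above, they were -0.33 (-0.64 to -0.02), -0.16 (-0.55 to 0.22) and -0.20 (-0.56 to 0.15), with adjusted *P*-values of 0.696, 0.958 and 0.915, and WT and KO overlapped for each gene. Same-numbered libraries deviated together at this age, a pairing read from the counts themselves and not stated in the labels. With the pairs as a replicate block *Scn4a* differed by -0.34 (SE 0.0737, adjusted *P*=0.0268 by the QL test of edgeR), *Scn4b* by -0.18 (adjusted *P*=0.1317) and *Clcn1* by -0.22 (adjusted *P*=0.1254), and none was a DEG.

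At P21 *Scn4b* separated the genotypes. The KO libraries, at 427 to 525 CPM, lay below the WT libraries, at 623 to 685 CPM, without overlap. The log2 fold change was -0.49 (SE 0.0821, 95% interval -0.67 to -0.31, adjusted *P*=0.00385 by the QL test of edgeR), which is 1.40-fold and under the fold threshold, so that *Scn4b* was not among the 4.67% of genes that were DEGs. KO lay below WT without overlap in 11% of all genes at this age. *Scn4a*, at 333 to 393 CPM in KO and 381 to 471 CPM in WT, overlapped and differed by -0.28 (SE 0.0841, adjusted *P*=0.0418). *Clcn1* overlapped widely and differed by -0.09 (95% interval -0.37 to 0.19, adjusted *P*=0.640), a direction that turned to 0.10 with library totals, at a median of all genes of 0.20. In that scaling *Scn4b* was at -0.30 (adjusted *P*=0.0204) and *Scn4a* at -0.09 (adjusted *P*=0.421).

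At P35 both sodium channel genes were lower in KO as DEGs, and *Clcn1* missed the threshold. All 4 KO libraries of each gene were below all 4 WT libraries. *Scn4a* had 434 ± 66.0 CPM in WT against 236 ± 10.99 CPM in KO (SD, n=4), a log2 fold change of -0.86 (SE 0.109, 95% interval -1.10 to -0.61, 1.81-fold lower, adjusted *P*=4.08e-04 by the QL test of edgeR). *Scn4b* had 835 ± 19.2 CPM against 459 ± 47.0 CPM and differed by -0.84 on the log2 scale (SE 0.0925, 95% interval -1.04 to -0.63, 1.79-fold lower, adjusted *P*=2.17e-04).

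*Clcn1* had 208 ± 33.4 CPM against 144 ± 20.6 CPM at P35 and differed by -0.50 on the log2 scale (SE 0.134, 95% interval -0.80 to -0.20, 1.42-fold lower, adjusted *P*=0.0146 by the QL test of edgeR). Without KO P35 replicate 1, the highest KO library, it was a DEG at -0.61 (adjusted *P*=0.00571), and in the other 7 fits that left out a library it was not. Thus 2 of the 3 genes were DEGs at an age at which 16% of all genes tested were, 7.52% of all genes with a lower level in KO. KO lay below WT without overlap in 20.4% of all genes. At a looser threshold, an adjusted *P* under 0.05 with no minimum fold, all 3 genes passed at P35, as did 41.4% of all genes, and *Scn4a* and *Scn4b* passed at P21, as did 21% of all genes.

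Scaling decided the size of these differences. With library totals the median over all genes at P35 moved from 0.04 to 0.44 on the log2 scale, and DEGs changed from 1324 higher and 1172 lower in KO to 4350 higher and 326 lower. *Scn4a* was then at -0.45 (adjusted *P*=0.00560) and *Scn4b* at -0.43 (adjusted *P*=0.00294) by the QL test of edgeR, both under the fold threshold, and *Clcn1* was at -0.10 (adjusted *P*=0.514). Relative to the median of all genes the 3 values were -0.89, -0.87 and -0.54, close to those with TMM. A change of scaling shifts all genes by about the same amount, so this closeness is no test of either scaling.

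**Figure D3:**
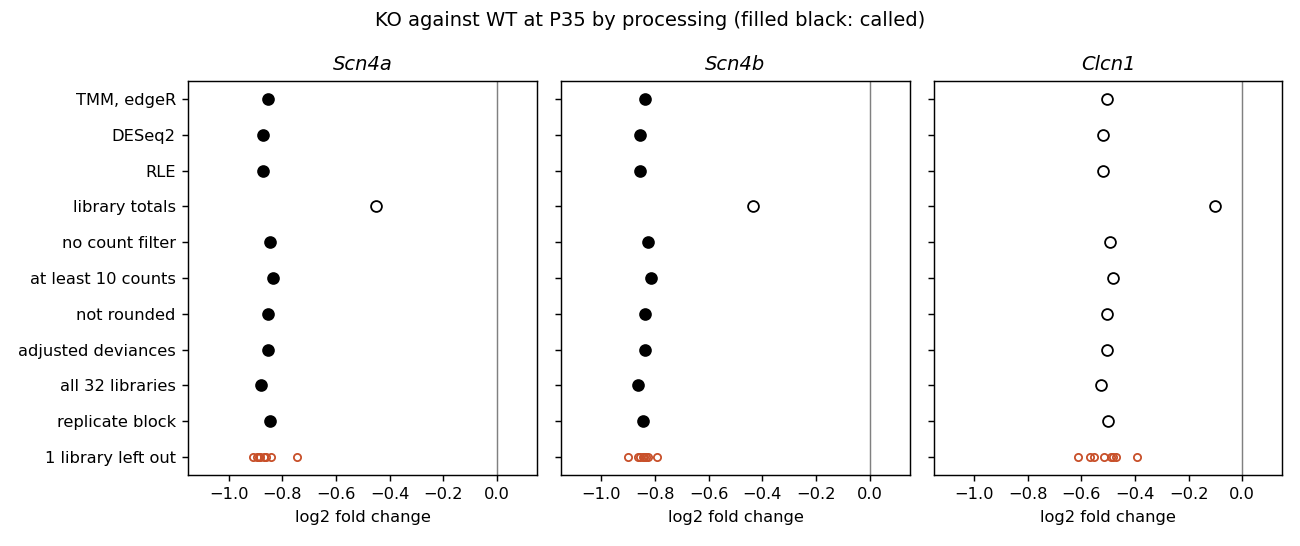
Log2 fold change of KO against WT at P35 for each gene under 10 ways of processing (rows) and in the 8 fits that left out a library (orange, bottom row), with filled black points where the gene was a DEG. Only scaling by library totals moves the points of *Scn4a* and *Scn4b* to about -0.45 and -0.43 and off the DEG threshold.

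The summed level of the fast myofiber markers also separated KO from WT at P35. It ranged from 164740.7 to 239717.4 CPM in the WT libraries and from 107469.0 to 141676.3 CPM in the KO libraries, without overlap. Of the 12 markers 2 were lower in KO as DEGs, with a median log2 fold change of -0.65 over the list against 0.04 over all genes. Mitochondrially encoded genes took 12.4 to 17.9% of the counts in WT and 10.3 to 10.5% in KO. Markers of other cell types moved at the same age. Adipocyte markers summed to 1.98 to 8.35 CPM in WT and 12.7 to 48.3 CPM in KO, without overlap, and 3 of 4 were DEGs with a higher level. Macrophage markers summed to 36.1 to 44.6 CPM in WT and 53.7 to 79.6 CPM in KO, also without overlap, with 3 of 5 higher. Of 5 endothelial markers 2 were lower, and their sums overlapped, at 338 to 641 CPM in WT and 312 to 394 CPM in KO. The part of these cell types in the channel values was not tested. Relative to the summed counts of the 12 fast myofiber markers, a comparison chosen after the marker levels had been seen, the channel genes overlapped between genotypes at P35. On the log2 scale *Scn4a* differed by -0.24 (SD 0.182, exact permutation *P*=0.143), *Scn4b* by -0.24 (SD 0.220, *P*=0.200) and *Clcn1* by 0.11 (SD 0.196, *P*=0.457), with adjusted *P*-values of 0.327, 0.356 and 0.563 over the 16 ratio tests added in this way and a smallest possible *P* of 0.0286. At P21 the summed markers ranged from 203212.7 to 267162.0 CPM in WT libraries and from 178910.5 to 195761.3 CPM in KO libraries, with 0 of 12 DEGs, and *Scn4b* relative to them differed by -0.17 with overlap (exact permutation *P*=0.171). In the same ratio at P21 *Scn4a* differed by 0.04 (exact permutation *P*=0.600) and *Clcn1* by 0.24 (exact permutation *P*=0.0571), each with overlap. In bulk RNA, fewer myofibers and less RNA per myofiber cannot be told apart.

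**Figure D4:**
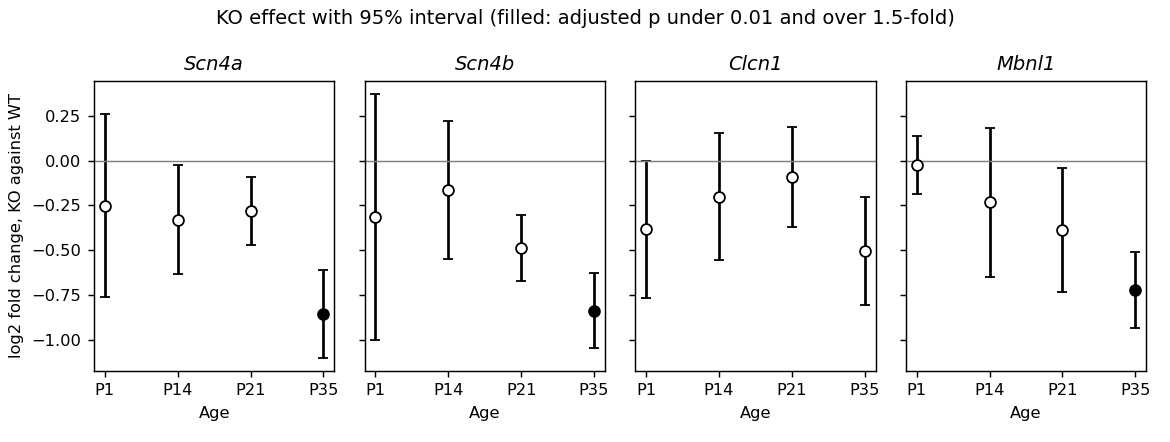
Log2 fold change of KO against WT (points) with 95% interval (bars) at each age for the 3 channel genes and for *Mbnl1*, filled where the gene was a DEG. *Scn4a* and *Scn4b* reach -0.86 and -0.84 at P35, where *Clcn1* is at -0.50 and *Mbnl1* at -0.72.

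Whether the KO effect changed from an age to the next was read from the interaction terms of a fit over all 32 libraries. None of the 3 genes passed at an adjusted *P* under 0.01 by the QL test of edgeR, whereas 0.0161% of all genes did for P14 against P1, 0.425% for P21 against P14 and 0.463% for P35 against P21. The largest value of the 3 genes was for *Scn4a* from P21 to P35, at -0.59 (SE 0.233, 95% interval -1.06 to -0.11, adjusted *P*=0.181). *Scn4b* was at -0.36 (SE 0.286, adjusted *P*=0.549) and *Clcn1* at -0.42 (SE 0.230, adjusted *P*=0.348). The unadjusted *P*-value was under 0.05 for *Scn4a* alone (0.0174). That *Scn4a* and *Scn4b* were DEGs at P35 and not at P21 is therefore not shown to be a difference between these ages.

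Ratios of counts within a library do not depend on the scaling between libraries. At P35 the log2 ratio of *Scn4b* to *Scn4a* was 0.96 ± 0.177 in WT and 0.96 ± 0.114 in KO (SD, n=4), a difference of 0.00 with a pooled SD of 0.149 (exact permutation *P*=0.971). The KO value of this ratio differed from that of WT by 0.17 at P14 and by -0.22 at P21, each with an exact permutation *P* of 0.0571 and with overlap. The log2 ratio of *Clcn1* to *Scn4a* at P35 was -1.06 ± 0.0647 in WT and -0.72 ± 0.151 in KO, higher in 4 of 4 KO libraries without overlap. This difference of 0.34 had an exact permutation *P* of 0.0286, the smallest that 4 against 4 libraries can give, and an adjusted *P* of 0.114 over the 12 ratio tests planned. *Clcn1* overlapped in this ratio at P1, P14 and P21, with differences of -0.09, 0.12 and 0.19.

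**Figure D5:**
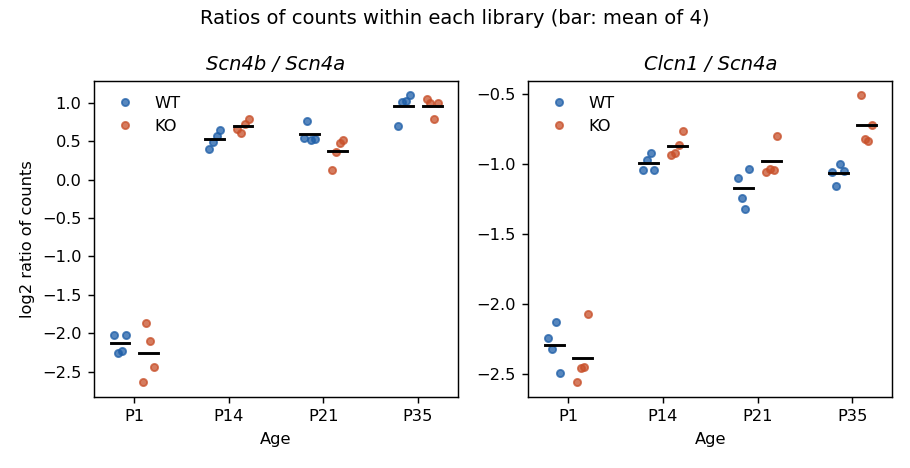
Log2 ratio of counts within each library of *Scn4b* and *Clcn1* to *Scn4a* by age, with WT in blue, KO in orange and bars at the mean of 4 libraries. At P35 *Scn4b* to *Scn4a* has a mean of 0.96 in both genotypes, whereas *Clcn1* to *Scn4a* does not overlap between them.

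*Scn3b* was lower in KO at P35, with a difference of -0.89 on the log2 scale (SE 0.211, adjusted *P*=0.00851 by the QL test of edgeR), a call that held without WT P35 replicate 3 (-1.03) or KO P35 replicate 2 (-1.02) and was lost in the other 6 fits that left out a library and with library totals (-0.48). *Scn2a*, an alpha subunit of neurons, was higher in KO by 1.59 on the log2 scale (SE 0.383, adjusted *P*=0.00904 by the same test). Its level was low, at 1.015 to 1.33 CPM in WT (44 to 56 counts) and 1.92 to 6.36 CPM in KO. The call was kept without KO P35 replicate 3 or 4 (both 1.78) and lost in the other 6 fits, down to 1.15 without KO P35 replicate 2.

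Lists of genes around these channels, and a list of genes known to respond to loss of the nerve, were counted at the same thresholds. At P35, 12 of the 52 list genes tested were higher in KO and 5 lower, where 8.49% and 7.52% of all genes were. Their median log2 fold change was 0.21 against 0.04 over all genes, and with library totals 23 were DEGs. The loss-of-nerve list alone gave 8 of the 12 higher genes and 1 of the 5 lower. At P21, 8 of 51 were higher and 2 lower, against 3.18% and 1.5% of all genes, and without KO P21 replicate 2 the 10 calls fell to 5. The loss-of-nerve list gave 7 of these 8 higher genes and 1 of the 2 lower. At P1 and P14 none of 57 and 54 was a DEG. With same-numbered libraries as pairs at P14, 1 list gene (*Runx1*, 1.22) was a DEG at that age and DEGs over all genes rose from 5 to 98.

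None of the 8 partners and regulators of sodium channels tested at P35 was a DEG, with a median of -0.19. That list holds ankyrin and syntrophin scaffolds, FGF homologous factors and a ubiquitin ligase. Over all genes tested at P35, 16% were DEGs, which is the share to set beside the list counts of this paragraph. Among CLC family genes and their subunits, *Ostm1*, the beta subunit of the lysosomal exchanger ClC-7, was lower in KO and differed by -0.78 on the log2 scale (SE 0.108, adjusted *P*=5.74e-04 by the QL test of edgeR), and the other 6 tested were not DEGs. It was at 57.1 to 60.7 CPM in WT and 27.6 to 39.4 CPM in KO. Of the 8 sodium potassium pump genes, *Fxyd5*, a regulator of the pump, was higher by 0.67 (SE 0.149, adjusted *P*=0.00633), a call kept only without KO P35 replicate 1 (0.75) among the 8 fits that left out a library and as low as 0.53 without KO P35 replicate 2.

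Factors known to act on *Clcn1* RNA or on muscle genes were mixed. *Mbnl1*, the splicing factor whose loss of function retains a fetal exon in *Clcn1* in myotonic dystrophy, had 574, 460, 448 and 463 CPM in WT at P35, whereas KO had 300.4, 288, 277 and 294 CPM, without overlap. Its log2 fold change of -0.72 (SE 0.0949, adjusted *P*=4.63e-04 by the QL test of edgeR) was of the size of that of *Scn4a*. *Mbnl2* was also lower, at -0.64 (SE 0.0935, adjusted *P*=7.86e-04) and *Mef2c*, a MEF2 factor, higher by 0.61 (SE 0.108, adjusted *P*=0.00191). *Mef2c* was not a DEG without WT P35 replicate 2 (0.58), WT P35 replicate 3 (0.55) or KO P35 replicate 1 (0.57). With library totals *Mbnl1* was at -0.32 and *Mbnl2* at -0.23, neither a DEG, and *Ostm1* at -0.38, under the fold threshold. The counts are per gene, so the splicing of *Clcn1* was not measured.

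The list of genes known to respond to loss of the nerve, chosen with earlier results of these data known, held the most DEGs of the 7 lists. Of its 13 genes, 8 were higher in KO at P35 and 1 lower, with a median log2 fold change of 1.57, where 8.49% of all genes were higher. At P21, 7 were higher and 1 lower, with a median of 1.23, where 3.18% of all genes were higher. *Runx1*, a transcription factor, was higher at P35 by 3.15 (SE 0.224, adjusted *P*=4.27e-05 by the QL test of edgeR). The cell adhesion gene *Ncam1* was higher by 1.91 (SE 0.186, adjusted *P*=1.36e-04), the myogenic factor *Myog* by 2.35 (SE 0.286, adjusted *P*=3.23e-04) and *Chrnb1*, a subunit of the acetylcholine receptor, by 0.80 (SE 0.102, adjusted *P*=3.99e-04). Schwann cell and myelin markers summed to 96.6 to 602 CPM in WT libraries and 321 to 1288.8 CPM in KO libraries at P35, which overlap, with a median log2 fold change of 1.51 and 0 of 7 DEGs, and all 6 neuronal markers had a mean under 1 CPM in both groups. The part of these cells in the values was not tested.

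Over all 32 libraries, the genes whose course was most like that of each channel gene were found by the root mean square (RMS) difference of log2 CPM after centring each gene, among 18583 genes. For *Scn4a* they included *Prkaa2* (0.136), *Adssl1* (0.205), *Cpeb3* (0.211) and *Trp53inp2* (0.214), whereas *Clcn1* was at rank 814 (0.616) and *Scn4b* at rank 7539 (1.27). For *Scn4b* they included *Ano5* (0.263), *Ankrd23* (0.341), *Smco1* (0.353) and *Asb14* (0.396), with *Clcn1* at rank 26 (0.702) and *Scn4a* at rank 219 (1.27). The same difference of 1.27 was thus rank 7539 from *Scn4a* and rank 219 from *Scn4b*, so a rank alone does not give closeness. For *Clcn1* they were *Cdnf* (0.250), *Slco5a1* (0.268), *Myoz3* (0.284), *Extl1* (0.284) and *Rpl3l* (0.288), with *Scn4a* at rank 120 (0.616) and *Scn4b* at rank 198 (0.702). The 32 libraries share the step from P1 to P14, which was larger than any later step in each of the 3 channel genes, so a small difference describes in large part that step.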

How the data were processed

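Groups were taken from the sample labels. Directional poly(A) libraries were sequenced in paired ends, and the authors deposited 1 expected count per gene and library, from alignments to GRCm38 and without pooling. The submitters' processing notes list STAR 2.6.1 and RSEM 1.2.22, whereas HTSeq is given as the counter in the study's methods. The annotation release and strand setting are not given in the sources used here. An expected count divides a read among the genes it fits, and 4.26% of values were not whole. Unused columns of library values numbered 0.

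Of 54838 IDs, 54723 matched a symbol in GENCODE M21, which also gave coordinates and exon lengths. Counts carried no molecular identifiers, and standard errors and intervals are from the spread between libraries. The closest pair of replicates still differed by more than sampling noise, so each library counted once. The 3 genes and the gene lists were chosen with earlier results of these data known. Counts were rounded and analysed with edgeR 4.0.16 in R 4.3.3 (filterByExpr, TMM, glmQLFit, glmQLFTest, Benjamini-Hochberg adjustment) on all genes, by age or by consecutive ages within a genotype. The interaction used all 32 libraries. Ratios used log2 of counts plus 0.5 and exact two-sided permutation tests over 70 assignments. Log2 CPM used a prior count of 2 for the nearest genes and the correlations of same-numbered libraries, and no prior count for the order of groups. Scripts were tested on simulated data. The named genes are the 3 channel genes, *Mtm1*, *Mbnl1*, up to 4 DEGs per list by adjusted *P*-value at P35, and the 5 genes nearest to each channel gene. Some genes under this rule, and the ratio tests that use them, are not reported here. *Fam131b* was added after its values were seen. Alternatives were DESeq2 1.42.0, RLE or library totals for TMM, no count filter or at least 10 counts per library, no rounding, 1 fit of all libraries, adjusted deviances in edgeR, an adjusted *P* under 0.05 with no minimum fold, replicate blocks and leaving out each library. For the interactions, a fit of only the 16 libraries of the 2 ages was a further alternative. The labels number replicates but do not state pairs. Pairs of same-numbered WT and KO libraries were read from these same data, at P14 only. There their deviations correlated by 0.19 to 0.59 across genes.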

Additional observations from a re-analysis of the deposited data

Results flagged for a closer look

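In 6 of 104 sets of 4 libraries examined, 1 library stood far from the other 3 by Dixon's criterion, and chance alone would mark about 1 set in 20. *Scn4a* in KO P1 replicate 4 was at 22.2 CPM, below the other 3 libraries of its group. *Scn4a* in WT P35 replicate 1 was at 531 CPM, above the rest of its group, and the same library was above the others for *Mbnl1*, at 574 CPM. *Clcn1* in KO P35 replicate 1 was at 175 CPM, the highest of its group. The log2 ratio of *Scn4b* to *Scn4a* in WT P21 replicate 2 was 0.765, above the other 3, and the log2 ratio of *Clcn1* to *Scn4a* in KO P21 replicate 4 was -0.794, also above the other 3.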

How the results depend on the processing

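Of 338 values of the channel genes, ratios and lists recomputed under other settings, 316 kept their direction and call. Fits that left out a library were not among the 338. A value called under neither setting counted as kept, as did a list count that moved by no more than 1.5-fold. With library totals *Scn4a* (-0.45) and *Scn4b* (-0.43) at P35, their P21 against P14 steps in WT (0.49 and 0.54) and the P35 against P21 step of *Scn4a* in KO (-0.45) fell under the fold threshold, and *Clcn1* at P21 (0.10), the P35 against P21 step of *Scn4b* in KO (0.14) and *Mbnl1* at P1 (0.0040) changed sign. With no count filter the P35 against P21 step of *Scn4b* in KO (0.0020) and the P21 against P14 interaction of *Scn4a* (-0.00206) changed sign. With 1 fit of all libraries the P21 against P14 step of *Scn4b* in WT (0.70) was lost. At an adjusted *P* under 0.05 with no minimum fold, *Scn4a* (-0.28) and *Scn4b* (-0.49) at P21 and *Clcn1* at P35 (-0.50) passed, as did 21 list genes at P21 and 28 at P35. DESeq2 called 1 list gene at P14. *Scn2a* at P35 was lost with adjusted deviances (1.598). The cause was not tested where a scaling or tool changed a call.

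Outside P14, same-numbered libraries share only a number, with mean correlations of their deviations between -0.14 and 0.085. There the replicate block lost the P21 against P14 steps of *Scn4a* (0.64) and *Scn4b* (0.70) in WT and of *Scn4a* in KO (0.69), the P35 against P21 step of *Scn4a* in KO (-0.59), and *Scn2a* (1.43) and *Scn3b* (-0.87) at P35. At P14, where same-numbered libraries deviated together, the block gave 1 list gene, and none of the channel genes was a DEG with or without it. Exchanging genotypes within 4 pairs cannot pass the threshold, so the ratio of *Clcn1* to *Scn4a* at P35 (0.34) had no call there.

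Without each library in turn, *Clcn1* at P35 ranged from -0.61 to -0.39, the P21 against P14 step from 0.58 to 0.71 (*Scn4a*) and 0.62 to 0.77 (*Scn4b*) in WT and 0.57 to 0.77 (*Scn4a*) in KO, and the P35 against P21 step of *Scn4a* in KO from -0.63 to -0.55. Values near 0 crossed it, from -0.15 to 0.0193 (*Scn4a*) and -0.049 to 0.14 (*Clcn1*) for P35 against P21 in WT and -0.0600 to 0.0618 for *Scn4b* in KO. Interactions ranged for P14 against P1 from -0.28 to 0.044 (*Scn4a*) and -0.083 to 0.41 (*Scn4b*), and for P21 against P14 from -0.072 to 0.14 (*Scn4a*) and -0.029 to 0.20 (*Clcn1*). At P1 *Mbnl1* ranged from -0.0888 to 0.00412. List genes called at P21 ranged from 5 (without KO P21 replicate 2) to 10.

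Over all settings KO had 0 to 93 DEGs at P1 (8 as reported) and 1 to 98 at P14 (5), whereas P21 had 417 to 3187 (709) and P35 had 1937 to 6462 (2496). For P21 against P14 they numbered 144 to 1364 in WT (848) and 396 to 1884 in KO (1097), for P35 against P21, 116 to 845 in WT (368) and 80 to 1198 in KO (631), and for the interactions 1 to 9 (3), 30 to 222 (79) and 9 to 325 (86). Depth was not the limit for the channel genes, which had at least 459 counts in every library.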
